A study of Mus musculus with 12 samples.

Results

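The 8 genes described here encode the proteins that split dietary disaccharides at the intestinal surface, carry the released hexoses across the epithelium and start the breakdown of fructose. They were taken by symbol from a table of 55891 mouse genes: the disaccharidases Sis, Mgam, Treh and Lct, the transporters Slc5a1, Slc2a2 and Slc2a5, and the fructose-phosphorylating enzyme Khk. All 8 were found, each with 1 row. Transcript levels were measured by mRNA sequencing of mucosal scrapings of the ileum, where the small intestine ends, in 12 mice at baseline. One library was made per mouse, 6 of the genotype labelled Erbb3-FF and 6 of the genotype labelled ERBB3-dIE. Erbb3 encodes a receptor tyrosine kinase of the ErbB family. Litter A held 4 Erbb3-FF mice (numbers 3 to 6) and 3 ERBB3-dIE mice (4 to 6), and litter B held 2 Erbb3-FF mice (1 and 2) and 3 ERBB3-dIE mice (1 to 3). Strain, age, sex, the promoter that drives any recombinase, the cells in which it acts and the part of Erbb3 that is altered were not stated in the labels.

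The surface of the small intestine finishes the digestion of carbohydrate. Sucrase-isomaltase (Sis) splits sucrose and the branch points of starch, maltase-glucoamylase (Mgam) splits short glucose chains, trehalase (Treh) splits trehalose, a sugar of fungi and insects, and lactase (Lct) splits milk sugar and is known to decline after weaning. The sodium-coupled transporter SGLT1 (Slc5a1) takes up glucose and galactose at the apical membrane, GLUT5 (Slc2a5) takes up fructose there, GLUT2 (Slc2a2) lets hexoses pass to the blood side, and ketohexokinase (Khk) phosphorylates fructose inside the cell.

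Values are in TPM, estimated reads scaled to gene length and then to a fixed sum per library, so levels of different genes can be compared. Differences are on the log2(TPM + 0.5) scale, which understates the change of low genes. They were tested with limma over the 12605 genes that reached 1 TPM in at least 6 libraries, with genotype and litter in one model, and Benjamini-Hochberg adjusted over all of them. Of the 8 genes 7 passed that filter and Lct did not. In scrapings, fewer cells of a type and less RNA per cell cannot be told apart.

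Erbb3 itself read 117 ± 23.7 TPM (SD, n = 6) in Erbb3-FF and 142 ± 39.9 in ERBB3-dIE mice, a difference of 0.16 with a limma adjusted p of 0.402. A gene-level TPM also counts transcript from outside an altered part, so this does not check the genotype labels, and the genotypes are used here as labelled. Pmp22, the gene named in the series title, differed by -1.79 (limma adjusted p = 0.000328). The ileal markers Fabp6 (6460 to 45970 TPM) and Slc10a2 (48.2 to 249 TPM) were high in every library, while the duodenal factor Pdx1 did not exceed 0.108 TPM. Pdx1 is 1 of 6 listed markers of the proximal small intestine. Of these, 2 passed the filter, Slc40a1 and Fabp1, and the 6 summed to 24.5 to 85.3 TPM per library. Between 12344 and 13364 genes reached 1 TPM in a library, and reads per library are not known from TPM. Ribosomal sequence took 10.2% and 10.8% of TPM in Erbb3-FF mice 5 and 6, and no more than 1.62% in the other libraries. Mitochondrial genes took 7.94% to 15% of TPM in litter B and 13.6% to 22.1% in litter A.

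One library stood apart from its litter. Erbb3-FF mouse 3 is labelled litter A, yet in all 8 genes its level lay within or above the range of litter B. Its summed TPM of the 10 enterocyte markers was 20472, the highest of the 12, against 5858 to 11342 in the other litter A mice. Its summed TPM of the 7 B cell markers was 118, against 4.52 to 8.96 in the other litter A mice, 138 and 299 in the Erbb3-FF mice of litter B, and 5.47 to 16.0 in the ERBB3-dIE mice of litter B. The litter differences of Sis, Mgam, Treh, Slc5a1, Slc2a5 and Khk are therefore given with and without this library. Those of related genes and of cell type or region markers are given only with it. Since the mouse was singled out on these same genes, litter values without it are descriptions.

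**Figure D1:**
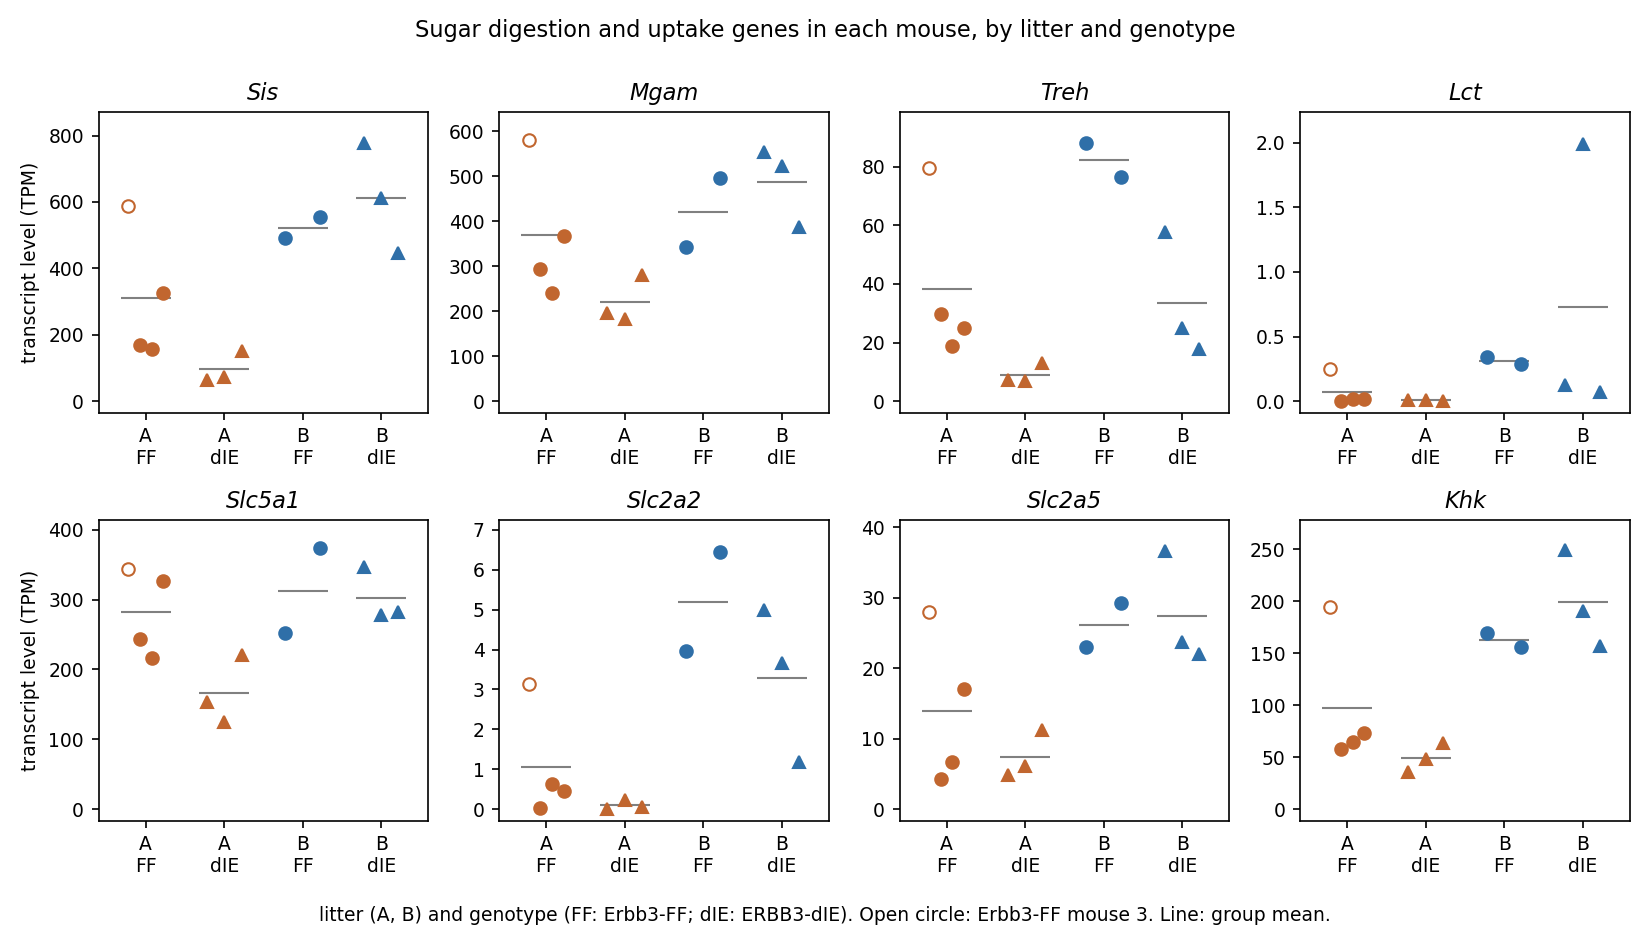
Transcript level (TPM, linear axes) of each gene in each of the 12 mice, grouped by litter (A, B) and genotype (FF, Erbb3-FF; dIE, ERBB3-dIE), with a grey line at each group mean and an open circle for Erbb3-FF mouse 3. In Sis, Slc2a5 and Khk the other litter A mice lie below all litter B mice, and in Treh the ERBB3-dIE mice lie below the Erbb3-FF mice within each litter.

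In level, the set spanned a wide range. Mgam averaged 370 ± 140 TPM (SD, n = 12 mice), Sis 368 ± 242, Slc5a1 263 ± 77.8, Khk 122 ± 71.7, Treh 37.1 ± 29.9, Slc2a5 17.7 ± 10.99, Slc2a2 2.06 ± 2.26 and Lct 0.259 ± 0.558. The order Mgam above Slc5a1 above Khk above Treh held in 12 of 12 mice. Sis had no fixed place in it: it exceeded Mgam in 6 mice and Slc5a1 in 6, so Sis and Mgam, neighbours by mean, did not differ beyond their spread. Treh exceeded Slc2a5 in 11 of 12 mice, Slc2a5 exceeded Slc2a2 in 12, and Slc2a2 exceeded Lct in 11.

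Promoter sequences of 4 genes are shown first: Treh, which differed by genotype, Sis and Khk, which differed by litter, and Mgam, the relative of Sis that passed neither test. RefSeq promoter entries (build GRCm38.p6, an earlier build than the GRCm39 of the deposited values) were found for all 8 genes, and the 250 bases before each start site were searched on both strands. For the intestinal CDX factors the letters searched were TTTAT. A half-site of HNF1 was searched as GTTAAT, and the site of HNF4 as CAAAGTCC. For the GATA factors the letters were AGATAA. The palindromic E-box of helix-loop-helix factors was searched as CACGTG. The TATA box was searched as TATAAA. Matches are in capitals, each sequence runs 5′ to 3′ along the gene's strand, and positions count back from the start site. Treh is at chr9:44672983-44673232 on the plus strand, Sis at chr3:72967864-72968113 on the minus strand, Mgam at chr6:40628581-40628830 on the plus strand and Khk at chr5:30921309-30921558 on the plus strand.
Treh: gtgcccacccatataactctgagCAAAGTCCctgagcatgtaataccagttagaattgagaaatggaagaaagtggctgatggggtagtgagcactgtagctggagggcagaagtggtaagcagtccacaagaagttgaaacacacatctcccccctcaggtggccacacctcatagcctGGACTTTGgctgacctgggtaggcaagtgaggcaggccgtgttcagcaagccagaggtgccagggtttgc
Sis: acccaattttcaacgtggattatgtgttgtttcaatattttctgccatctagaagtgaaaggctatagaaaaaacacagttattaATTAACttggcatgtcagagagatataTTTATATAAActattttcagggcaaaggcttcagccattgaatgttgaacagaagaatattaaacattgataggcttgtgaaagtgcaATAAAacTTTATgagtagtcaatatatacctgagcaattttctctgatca
Mgam: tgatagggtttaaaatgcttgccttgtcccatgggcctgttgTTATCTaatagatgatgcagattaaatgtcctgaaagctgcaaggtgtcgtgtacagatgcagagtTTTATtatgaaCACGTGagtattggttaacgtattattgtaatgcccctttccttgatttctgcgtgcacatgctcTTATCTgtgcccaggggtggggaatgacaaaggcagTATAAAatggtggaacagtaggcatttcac
Khk: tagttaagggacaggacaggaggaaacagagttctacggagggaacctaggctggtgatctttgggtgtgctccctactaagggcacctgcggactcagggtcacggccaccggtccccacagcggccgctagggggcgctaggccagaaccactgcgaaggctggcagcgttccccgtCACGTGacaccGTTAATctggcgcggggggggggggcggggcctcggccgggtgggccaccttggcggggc
Treh held the HNF4 letters at -227 to -220 and, on the opposite strand, at -70 to -63, where 1.22% of 27025 promoters hold them at all. It was the only one of the 8 promoters with them. Sis held 4 CDX matches, of which those between -138 and -129 overlap matches to the TATA box letters on both strands, and the HNF1 half-site on the opposite strand at -165 to -160. Mgam held the TATA box letters at -30 to -25, overlapping a CDX match on the opposite strand, and a second CDX match at -142 to -138. It also held the GATA letters on the opposite strand at -208 to -203 and -66 to -61, and the E-box letters at -131 to -126. The E-box letters also lay at -71 to -66 in Khk and -143 to -138 in Slc5a1, so 3 of the 8 promoters held them against 6.05% of all. The CDX letters were in 3 of 8 (Sis, Mgam, Lct) against 38.1% of all promoters, and the GATA letters in 2 of 8 (Mgam, Lct) against 10.3%. The TATA box letters were in 2 of 8 (Sis, Mgam) against 13%. The HNF1 half-site was in 2 of 8 (Sis, Khk), and 6.52% of all promoters hold it. Its letters were shortened after a longer form matched none of these 8 promoters, so its count cannot be weighed against that share. Slc2a2 and Slc2a5 held none of these letters. Such matches describe the sequence and do not show that a factor binds there.

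The first comparison asked whether these genes differed between mice labelled ERBB3-dIE and Erbb3-FF. Treh was lower in ERBB3-dIE mice and was the only one of the 7 tested genes that passed the test. Of all tested genes 3.70% were lower and 1.66% higher, and 0 of the 7 were higher. The median difference of the 7 was -0.47, against -0.001 over all tested genes. No gene of the 7 had genotype ranges that were apart, which 1.43% of tested genes did with ERBB3-dIE lower.

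Treh, which releases glucose from trehalose, read 88.0 and 76.5 TPM in the Erbb3-FF mice of litter B and 57.6, 24.8 and 17.9 in their ERBB3-dIE littermates. In litter A it read 79.5, 29.6, 18.8 and 24.8 TPM in Erbb3-FF mice 3 to 6 and 7.31, 6.83 and 13.0 in ERBB3-dIE mice 4 to 6. Within each litter every ERBB3-dIE mouse was below every Erbb3-FF mouse, whereas over both litters the ranges overlapped. The fitted difference was -1.69 (SE 0.37, 95% interval -2.50 to -0.88), a level 3.22-fold lower, with a limma adjusted p of 0.0260. An exact 2-sided permutation test of genotype within litters gave p = 0.00571, as 2 of its 350 relabellings, the observed one included, were at least as far from 0. In the authors' deposited table, Treh has a mean normalized count of 784, a log2 fold change of -1.34 and an adjusted p of 2.97e-05, and 7.51% of the genes with an adjusted p there are lower.

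Leaving out single mice, the Treh difference stayed between -1.88 and -1.44, but the limma adjusted p exceeded 0.05 in 5 of 12 such fits: 0.0599 without Erbb3-FF mouse 1, 0.0541 without mouse 2, and 0.0515, 0.0682 and 0.0705 without ERBB3-dIE mice 3, 4 and 5. Without Erbb3-FF mouse 3 it was -1.44 (limma adjusted p = 0.0187). Without ERBB3-dIE mice 4 and 5, whose smooth muscle markers were highest, it was -1.39 (limma adjusted p = 0.209), and with a B cell score in the model -1.45 (limma adjusted p = 0.178).

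Markers of several cell types moved with genotype beside Treh, where 3.70% of all tested genes were lower and 1.66% higher in ERBB3-dIE mice. All 6 villus tip markers had negative differences and 4 of them passed the test (Nt5e -2.70, Ada -2.39, Creb3l3 -2.15, Slc28a2 -1.94), with summed levels of 255 to 573 TPM in Erbb3-FF and 120 to 210 in ERBB3-dIE mice. Of the 10 enterocyte markers 4 passed the test as lower, Alpi (alkaline phosphatase, -1.91), Fabp2 (a fatty acid carrier, -1.44), Krt20 (-0.59) and Cdh17 (-0.52). The ileal bile acid transporter Slc10a2 was also lower (-1.18, limma adjusted p = 0.0119). Of the 8 goblet cell markers 4 were higher and 0 lower (Spdef 1.14, Agr2 1.07, Muc2 0.89, Atoh1 0.71), with summed levels of 15197 to 28502 TPM in Erbb3-FF and 22354 to 62059 in ERBB3-dIE mice. Of the 7 T cell markers 3 were higher and 0 lower (Gzma 1.83, Cd7 1.39, Cd8a 1.20), with sums of 58.6 to 141 and 114 to 426 TPM. Relative to the mean of the pan-epithelial markers, Treh differed by -1.65 (limma adjusted p = 0.0295) and remained the only one of the 7 genes called, where 2.55% of tested genes were lower. Relative to the mean of the enterocyte markers it differed by -0.94 (limma adjusted p = 0.0118), on a scale that placed the median of all tested genes at 0.749. The part of the villus tip, goblet and T cell genes in the Treh result was not tested.

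Sis, which makes the enzyme for sucrose, read 156, 408 and 589 TPM (lowest, median, highest) in Erbb3-FF and 65.1, 300 and 777 in ERBB3-dIE mice. The ERBB3-dIE range enclosed the Erbb3-FF range, and the difference of -0.84 (SE 0.42) had a limma adjusted p of 0.273. Mgam read 240, 355 and 580 TPM in Erbb3-FF and 184, 333 and 555 in ERBB3-dIE mice, a difference of -0.32 (SE 0.25, limma adjusted p = 0.507). A pseudogene copy, Mgam2-ps, is listed separately in the table, so reads shared with Mgam may have been divided between them.

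Among the transporters, Slc5a1 read 216, 289 and 374 TPM in Erbb3-FF and 124, 249 and 347 in ERBB3-dIE mice, a difference of -0.47 (SE 0.20, limma adjusted p = 0.203). Slc2a2 differed by -0.90 (SE 0.44, limma adjusted p = 0.267) and Slc2a5 by -0.35 (SE 0.41, limma adjusted p = 0.664). Khk read 58.1, 115 and 194 TPM in Erbb3-FF and 36.1, 110 and 249 in ERBB3-dIE mice, a difference of -0.38 (SE 0.32, limma adjusted p = 0.532). Genotype ranges overlapped in each of these 4 genes. Without Erbb3-FF mouse 3 several of these differences were smaller, at -0.57 in Sis, -0.15 in Mgam, -0.39 in Slc5a1, -0.08 in Slc2a5 and -0.12 in Khk. The 95% intervals reached from -1.76 to 0.08 in Sis and from -0.87 to 0.23 in Mgam, so the spread between mice leaves room for a fall of that size in ERBB3-dIE mice.

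The ratio of Treh to Khk served as a measure that does not depend on a library's total. Sis, Mgam, Slc5a1 and Slc2a5 also had values in all 12 mice. Khk was chosen from among these genes after the values were seen, so the ratio is a description. Treh over Khk was 0.520, 0.490, 0.409, 0.510, 0.290 and 0.339 in Erbb3-FF mice 1 to 6 and 0.231, 0.130, 0.114, 0.202, 0.142 and 0.204 in ERBB3-dIE mice 1 to 6. The genotypes did not overlap in this ratio. They overlapped in Treh over Sis, at 0.0761 to 0.179 in Erbb3-FF and 0.0399 to 0.112 in ERBB3-dIE mice, and in Treh over Slc2a5, at 1.46 to 7 and 0.814 to 1.57. Ratios to Mgam and Slc5a1 overlapped too: Treh, Mgam and Slc5a1 read 24.8, 367 and 327 TPM in Erbb3-FF mouse 6. In ERBB3-dIE mouse 1 they read 57.6, 555 and 347 TPM. Of these genes, only Khk kept the genotypes apart.

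**Figure D2:**
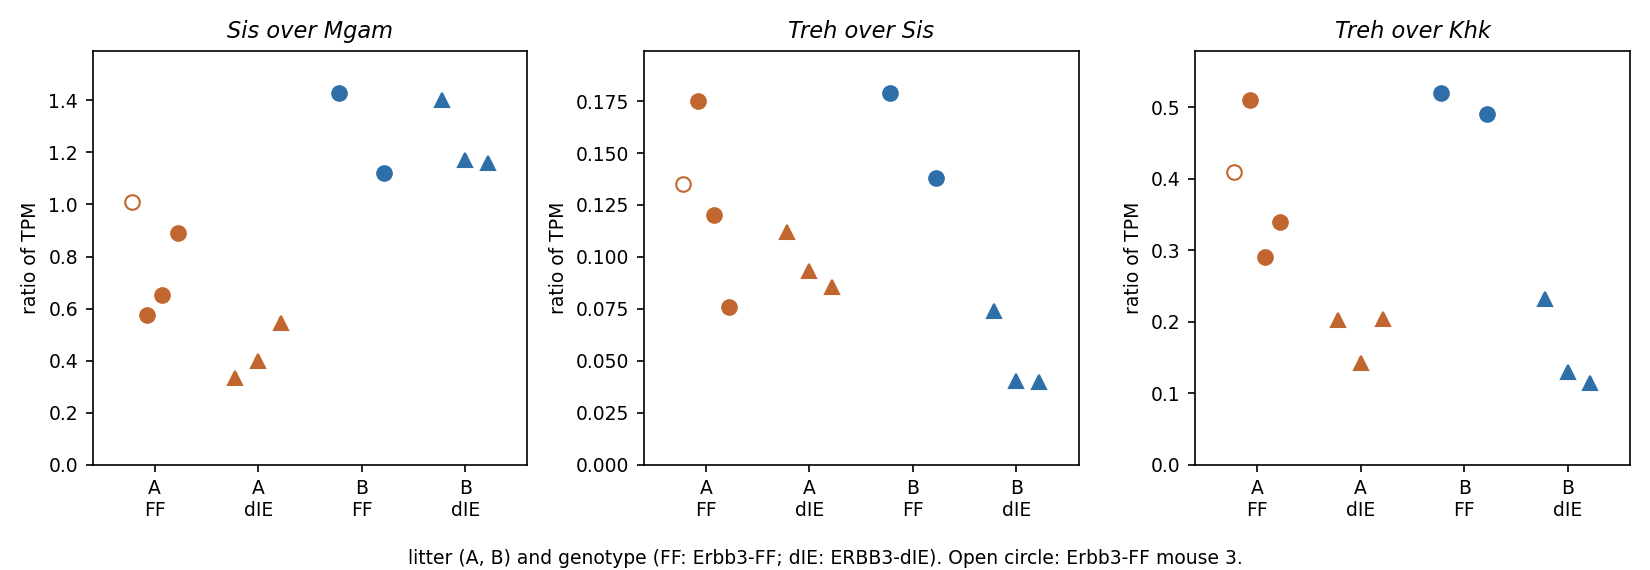
Ratio of the TPM of gene pairs in each of the 12 mice by litter (A, B) and genotype (FF, dIE), with an open circle for Erbb3-FF mouse 3. Treh over Khk lies at 0.290 or more in Erbb3-FF mice and at 0.231 or less in ERBB3-dIE mice, whereas Sis over Mgam is 1.12 or more in litter B and 1.01 or less in litter A.

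The second comparison set litter B against litter A. Slc2a2 reached 1 TPM only in the 5 litter B mice and Erbb3-FF mouse 3, so its place among the tested genes came from the group in which it was high, and it is not counted here. The other 6 genes had positive differences, with a median of 1.51 against 0.046 over all tested genes. Of these, 4 passed the test as higher in litter B, where 7.16% of tested genes did: Sis, Slc2a5, Treh and Khk. None of the 6 had litter ranges that were apart with Erbb3-FF mouse 3 included (1.90% of tested genes did, with litter B higher). Without this mouse the ranges were apart in Sis, Slc2a5 and Khk (8.09% of tested genes).

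Sis was at 490, 555, 777, 612 and 448 TPM in the 5 litter B mice (Erbb3-FF 1 and 2, then ERBB3-dIE 1 to 3). In litter A it was at 589, 170, 156 and 326 TPM in Erbb3-FF mice 3 to 6 and at 65.1, 73.3 and 152 in ERBB3-dIE mice 4 to 6. Only Erbb3-FF mouse 3 of litter A reached the levels of litter B. The difference was 1.90 (SE 0.43, limma adjusted p = 0.0287), and 2.11 without that mouse.

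Mgam lay closer together, at 342, 497 and 555 TPM (lowest, median, highest of 5) in litter B and 184, 280 and 580 (of 7) in litter A, and its ranges overlapped. Its difference of 0.72 (SE 0.25) had a limma adjusted p of 0.0915, and it was 0.86 without Erbb3-FF mouse 3. The ratio of Sis to Mgam, the related pair of alpha-glucosidases, was 1.43, 1.12, 1.4, 1.17 and 1.16 in litter B. In litter A it was 1.01 in Erbb3-FF mouse 3 and 0.332 to 0.889 in the other 6 mice, so litters were apart in this ratio, which was also chosen after the values were seen.

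Treh differed by 1.53 between litters (SE 0.37, limma adjusted p = 0.0346) at equal genotype, and by 1.73 without Erbb3-FF mouse 3. The ranges of 17.9 to 88.0 TPM in litter B and 6.83 to 79.5 in litter A overlapped. Lct was low throughout, at 0.0692 to 1.99 TPM in litter B and 0 to 0.245 in litter A, and was listed at 0 in Erbb3-FF mouse 4 and ERBB3-dIE mouse 6. The authors' mean normalized count for Lct is 17.7.

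Slc5a1, which brings glucose in with sodium, read 252, 283 and 374 TPM in litter B and 124, 221 and 344 in litter A, with overlap. Its difference was 0.54 (SE 0.21, limma adjusted p = 0.111), and 0.61 without Erbb3-FF mouse 3. The fructose transporter Slc2a5 read 23.0, 29.3, 36.7, 23.7 and 21.96 TPM in litter B. In litter A it read 27.9, 4.23, 6.62 and 17.1 TPM in Erbb3-FF mice 3 to 6 and 4.76, 6.07 and 11.2 in ERBB3-dIE mice. Every litter A mouse but Erbb3-FF mouse 3 was below every litter B mouse, and the difference was 1.57 (SE 0.42, limma adjusted p = 0.0437), or 1.78 without that mouse.

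Slc2a2, the exit route to the blood side, was near the lower end of detection. It read 3.96, 6.44, 4.99, 3.65 and 1.19 TPM in litter B, 3.13 in Erbb3-FF mouse 3 and 0 to 0.617 in the other 6 litter A mice. Its fitted difference was 2.39 (SE 0.45). In a fit with no filter on low values, where its entry did not depend on its level, the limma adjusted p of the same difference was 0.0454, and 0.787% of all genes were higher. It was 0.125 with a smooth muscle score, 0.105 with a B cell score and 0.135 without ERBB3-dIE mice 4 and 5, all with the filter kept. In 5 alternatives, all with the filter kept, this p was 0.05 or more. The filter admitted the gene only through its high mice, so passes under it are not counted as support. Leaving out any single one of those mice removed it from the test. The authors' mean normalized count for it is 64.1.

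Khk, which commits fructose to breakdown, read 169, 156, 249, 191 and 157 TPM in litter B. In litter A it read 194, 58.1, 64.8 and 73.3 TPM in Erbb3-FF mice 3 to 6 and 36.1, 48.0 and 63.9 in ERBB3-dIE mice. The difference was 1.50 (SE 0.32, limma adjusted p = 0.0261), and 1.70 without Erbb3-FF mouse 3. Without that mouse the litter A mice lay at 36.1 to 73.3 TPM, all below the lowest litter B mouse at 156.

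The litter calls, and those of all genes with them, depended on single mice. Of the 6 genes, 2 were called without Erbb3-FF mouse 1 (2.28% of all tested genes in that fit), 2 without mouse 2 (2.33%), 0 without mouse 4 (2.05%), 1 without mouse 5 (3.07%) and 2 without mouse 6 (2.84%). Without ERBB3-dIE mice 1, 2, 4 or 5 in turn 0 were called (0.96%, 1.83%, 0.973% and 1.65% of all), 3 were called without mouse 3 (4.85%) and 2 without mouse 6 (2.72%). Without Erbb3-FF mouse 3 the count was 6, where 15.7% of all tested genes were called. All 6 differences were positive in each of these fits. By gene, the limma adjusted p exceeded 0.05 in 11 of the 12 fits for Slc2a5, 10 for Treh, 6 for Sis and 5 for Khk. The limma adjusted p of Slc2a5 was also 0.055 with median-of-ratios scaling, 0.052 with upper-quartile scaling and 0.059 without mitochondrial and ribosomal genes.

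Tissue makeup differed between libraries beside the litter result. The summed smooth muscle markers (9 listed, 6 tested) reached 162 and 167 TPM in ERBB3-dIE mice 4 and 5, both of litter A, against 4.14 to 48.0 in the other 10 mice. With a smooth muscle score in the model, Sis differed between litters by 1.20 (limma adjusted p = 0.145), Khk by 1.06 (0.155) and Treh by 1.09 (0.201), and 0 of the 6 genes passed, and 0 of all tested genes did. Without ERBB3-dIE mice 4 and 5 Sis differed by 1.33 (limma adjusted p = 0.179), and again 0 of the 6 and 0 of all passed. Of the distal small intestine markers 3 of 5 were higher in litter B, where 7.16% of tested genes were. Among them was Fabp6, the ileal bile acid carrier, at 1.80 (limma adjusted p = 0.0261). Of the 10 enterocyte markers 3 were higher in litter B and 0 lower. Their sums were 11693 to 16697 TPM in litter B and 5858 to 20472 in litter A, the highest being Erbb3-FF mouse 3. Of the 8 goblet cell markers 4 were higher and 0 lower. Of 2 tested proximal markers, Slc40a1 was lower in litter B (-0.84, limma adjusted p = 0.0258). The part of these cell types in the litter result was not tested. Relative to the pan-epithelial markers 2 of the 6 genes passed as higher in litter B (Sis 1.87, Khk 1.47), where 2.20% of tested genes did. Litter and any difference in age, day or position of sampling cannot be told apart.

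**Figure D3:**
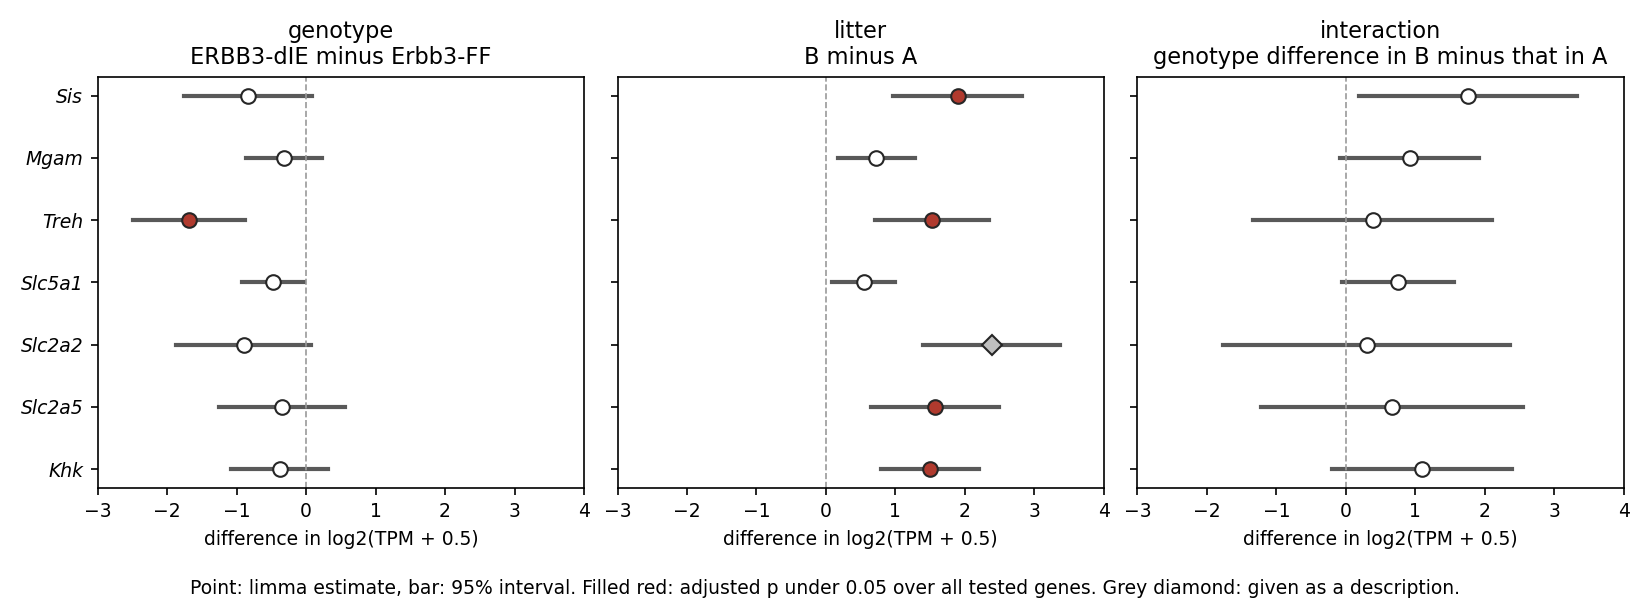
Fitted differences in log2(TPM + 0.5) of the 7 tested genes for genotype, litter and their interaction, with bars for the 95% interval filled points where the limma adjusted p is under 0.05, and a grey diamond for the litter difference of Slc2a2, given as a description. Treh alone is filled for genotype, and Sis, Treh, Slc2a5 and Khk are filled for litter.

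Whether the genotype difference itself differed between litters was tested as an interaction. Over all 12605 genes limma called 0, and 0% of tested genes were therefore called. Under an unadjusted limma threshold of 0.05 there were 1174 genes (9.31%), of which 1 was among the 7, Sis. Its interaction was 1.76 (95% interval 0.20 to 3.32, limma adjusted p = 0.470). Within litter A the genotype difference of Sis was -1.57 (limma adjusted p = 0.108) and within litter B 0.19 (limma adjusted p = 0.915). The interaction and litter A values of all 7 genes include Erbb3-FF mouse 3. Its Sis level was 589 TPM, against 156 to 326 in the other Erbb3-FF mice of litter A.

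The other genes gave smaller interaction values, and none was called within a litter. Treh differed by -1.84 within litter A (limma adjusted p = 0.0917) and by -1.46 within litter B (limma adjusted p = 0.294). Within litter A 0 of the 7 were called (1.13% of tested genes in either direction) and 4 were under an unadjusted p of 0.05, as were 19.5% of all genes: Sis, Treh, Slc5a1 (-0.78) and Mgam (-0.69). Within litter B 0 were called (0.912% of tested genes) and 1 was under an unadjusted p of 0.05, Treh, as were 14.5% of all genes. Khk was at -0.83 within litter A and 0.27 within litter B, and Slc2a5 at -0.62 and 0.04.

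Across the 12 mice the 7 genes varied together, as a description in which all points share library, litter and tissue makeup. Pearson correlations of log2(TPM + 0.5) between pairs ran from 0.694 (Slc5a1 with Slc2a2) to 0.963 (Sis with Khk). Of all tested genes, the most like Sis were Smim24 (r = 0.988), Xpnpep2 (0.986) and Sgms2 (0.985). The most like Khk were Ifi27l2b (0.995), Dgkd (0.989) and again Smim24 (0.987), and the most like Slc2a5 were Sgms2 (0.951), Lrrc57 (0.949) and Siae (0.943). Mgam was followed most closely by Anpep (0.962), which encodes the brush-border aminopeptidase N, then by Mdh1 (0.961) and Agpat1 (0.959).

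The remaining genes had other companions. Treh was most like Arl8a (r = 0.988), Ces2e (0.984) and Ceacam18 (0.983), which differed by -0.599, -0.796 and -1.396 between genotypes. Slc5a1 was most like Slc13a1 (0.968), a sodium-coupled sulfate transporter, Suox (0.967), sulfite oxidase, and Pepd (0.953). Slc2a2 was most like Lmo4 (0.991), Tsc22d3 (0.982) and Vwa1 (0.979).

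Around the 8 genes, lists of related genes were read in the same fit. In that fit 3.70% of all tested genes were lower and 1.66% higher in ERBB3-dIE mice, and 7.16% were higher in litter B. With a smooth muscle score in the model, or without ERBB3-dIE mice 4 and 5, 0 of all tested genes passed as higher in litter B. Among 15 enzymes of fructose and galactose metabolism 3 were lower in ERBB3-dIE mice and 0 higher: Sord, which makes fructose from sorbitol (-0.74, limma adjusted p = 0.0239), Pgm2 (-0.73) and Mpi (-0.45). The list's median was -0.16. Of the same 15, 5 were higher in litter B and 0 lower, with a median of 0.29. Those reported here, named after their values were seen, were Galm (0.89), Tkfc (0.89), Glyctk (0.84) and Sord (0.64). Galm, which encodes the mutarotase that interconverts the ring forms of galactose and glucose, read 57.4, 70.2 and 74.0 TPM (lowest, median, highest) in litter B and 27.7, 33.9 and 72.5 in litter A, and the ranges overlapped.

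Of 8 genes of glucose production, Pck1 was higher (0.91) and Pcx lower (-0.86) in ERBB3-dIE mice. Pck1, which encodes phosphoenolpyruvate carboxykinase, averaged 19.6 ± 7.64 TPM (SD, n = 6) in Erbb3-FF and 44.7 ± 24.4 in ERBB3-dIE mice (limma adjusted p = 0.0416). In litter B 4 of these 8 were higher, where 7.16% of tested genes were, and 0 lower: G6pc (1.68), Fbp1 (1.66), Pck1 (0.97) and Fbp2 (0.63). G6pc, the last step of glucose release, averaged 20.41 ± 11.95 TPM (SD, n = 5) in litter B and 5.60 ± 3.82 (n = 7) in litter A.

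Of 20 glycolysis genes 17 were tested, and 4 were lower and 0 higher in ERBB3-dIE mice. They were Pklr, the pyruvate kinase of liver and gut (-0.81, limma adjusted p = 0.0109), the hexokinase relative Hkdc1 (-0.72), Pfkp (-0.61) and Ldha (-0.39). Pklr averaged 97.5 ± 15.5 TPM (SD, n = 6) in Erbb3-FF mice and 56.8 ± 10.7 TPM (n = 6) in the other genotype. Between litters 1 of the 17 changed, Hk2, a hexokinase, which was lower in litter B (-1.05).

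**Figure D4:**
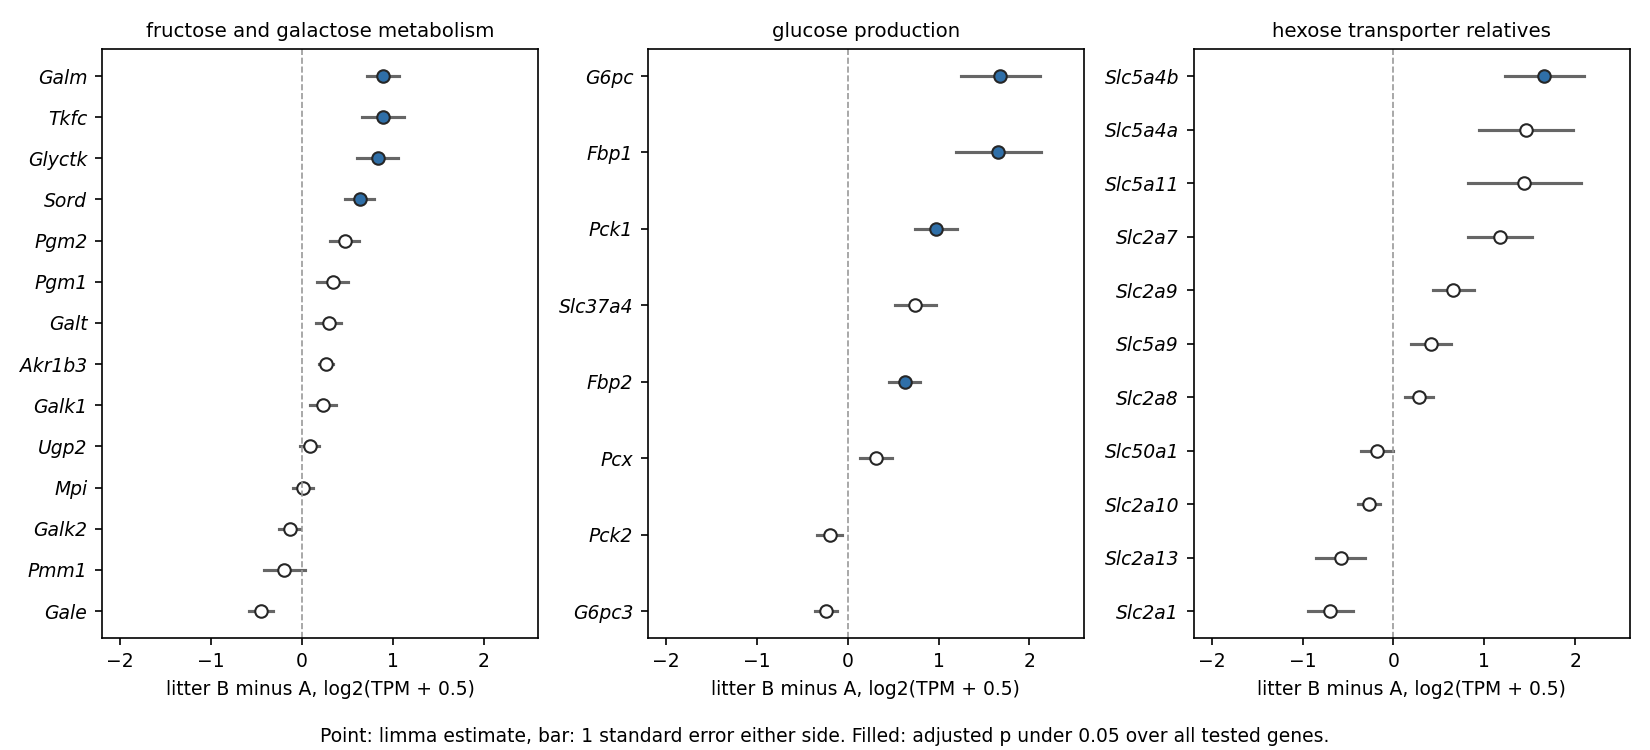
Fitted difference between litters (B minus A, log2(TPM + 0.5)) for 33 tested genes of 3 related lists, with bars of 1 standard error either side and filled points where the limma adjusted p is under 0.05. Filled points lie right of zero in 4 of the 14 genes drawn of fructose and galactose metabolism, 4 of 8 of glucose production and 1 of 11 hexose transporter relatives.

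Of 17 relatives of the hexose transporters 11 were tested. Slc2a10 was higher in ERBB3-dIE mice (0.64), at 2.76 ± 0.454 TPM (SD, n = 6) against 1.66 ± 0.279 (n = 6) in Erbb3-FF mice. Slc5a4b, a close copy of Slc5a4a whose reads may be shared with it, was the only one higher in litter B (1.66). Of 13 tested glycosidases outside the set 0 passed for genotype, where Mogs had the smallest p (0.45, limma adjusted p = 0.215). Of 8 tested genes of sugar sensing 0 passed for genotype, where Mlxip had the smallest p (0.53, limma adjusted p = 0.104). Mlxipl, which encodes the sugar-responsive factor ChREBP, was higher in litter B (0.76, limma adjusted p = 0.0287).

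Of 12 factors known to bind promoters of sugar genes 11 were tested. Foxa3 was higher (0.74, limma adjusted p = 0.00395) and Hnf4g lower (-0.58, limma adjusted p = 0.0247) in ERBB3-dIE mice. Hnf4g, an HNF4 family member, averaged 109 ± 10.9 TPM (SD, n = 6) in Erbb3-FF mice and 79.7 ± 21.3 (n = 6) in ERBB3-dIE mice. Hnf4a, of the same family, differed by -0.17 (limma adjusted p = 0.326). Isx (0.68), Hnf4g (0.47) and Gata6 (0.30) were higher in litter B. Of 12 genes of the sodium gradient and of apical delivery 0 passed for genotype, where Slc9a3r1 had the smallest p (-0.64, limma adjusted p = 0.0602). Pdzk1, an apical scaffold, was higher in litter B (1.70, limma adjusted p = 0.0293), at 277 ± 55.5 TPM (SD, n = 5) against 134 ± 130 (n = 7) in litter A.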

How the data were processed

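Mucosal scrapings of the ileum were sequenced, 1 library per mouse. Per the labels' protocols, libraries were made with a strand-marking mRNA kit and read single-end. The authors worked on build GRCm39 with Salmon 1.10.0, CASAVA and DESeq2, per the submitters' processing notes. The authors deposited TPM for each gene and library, and TPM keep no depth. The same table holds, per the file headers, the authors' mean normalized count, a signal summing to 11353719 over all genes, and the authors' log2 fold change, Wald score and p-value with its adjusted value. The design behind that test is not given in these sources.

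From the TPM, log2(TPM + 0.5) of genes reaching 1 TPM in 6 or more libraries was fitted with limma 3.58.1 (R 4.3.3, variance trend) on litter and genotype, with Benjamini-Hochberg adjustment over the tested genes and a threshold of 0.05. Further models tested the interaction, each litter and levels relative to pan-epithelial markers. SE is limma's moderated standard error. The steps were tested on simulated data. A permutation test of genotype within litters was exact. Library correlations of 0.878 to 0.955 showed no copies.

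The genes, lists and tests were chosen with earlier results of these data known. The text names, from each list, up to 4 genes past the genotype threshold, or else the gene with the smallest p, and the 3 genes most like each member. List genes named for litter, and Hnf4a, were chosen after their values were seen. The values of 2 list genes are not reported here. Alternatives changed the filter, pseudocount, scaling, variance, library weights and covariates, blocked on mouse number, or left out litter, a litter or a mouse. Subtracting enterocyte markers and litter ranges without Erbb3-FF mouse 3 were added after seeing the data. Marker lists covered 14 cell types or regions. The HNF1 letters searched were shortened from a longer form that matched none of the 8 promoters. Promoters come from RefSeq (GRCm38.p6) and figures from matplotlib 3.10.9.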

Additional observations from a re-analysis of the deposited data

Results flagged for a closer look

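Lct, lactase, had 1 mouse far from the rest in 2 of 24 groups examined (gene by genotype, and gene by genotype in litter A). In ERBB3-dIE mice, mouse 2 was at 1.99 TPM and the other 5 at 0 to 0.123. In Erbb3-FF mice of litter A, mouse 3 was at 0.245 TPM and the other 3 at 0 to 0.0149. Chance flags about 1 in 20 groups.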

How the results depend on the processing

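Treh kept its negative genotype difference in every alternative run, as did Slc2a2 in those where it was tested. Genes called higher in ERBB3-dIE mice (209) numbered 105 with no filter on low values, 320 with median-of-ratios and 419 with upper-quartile scaling, 344 with library weights, 87 without the litter term and 29 with a B cell covariate. They numbered 0 in litter A alone, 14 in litter B alone, 88 without Erbb3-FF mice 5 and 6, 43 without ERBB3-dIE mice 4 and 5, and 96 to 212 leaving out each mouse. Genes called lower (467) numbered 245 with no filter, 823 without mitochondrial and ribosomal genes, 736 with weights, 156 without the litter term, 38 with the B cell covariate, 0 in litter A and 15 in litter B alone, 70 without ERBB3-dIE mice 4 and 5, and 190 to 627 leaving out each mouse. Subtracting enterocyte markers, which moved the median of all genes to 0.749, gave 8691 higher and 60 lower, and the authors' deposited test 786 and 1164. The genotype call of Treh (1 member lower) fell to 0 with no filter, without the litter term, with the B cell covariate, in litter A alone, in litter B alone and without ERBB3-dIE mice 4 and 5, and leaving out each mouse gave 0 to 1. Members other than Slc2a2 called higher in litter B (4) numbered 2 relative to pan-epithelial markers and 0 with no filter, a smooth muscle covariate, a B cell covariate, without Erbb3-FF mice 5 and 6, or without ERBB3-dIE mice 4 and 5, and 0 to 6 leaving out each mouse. In the last 4 of these settings at most 0.0325% of all genes were called, and the members' differences stayed positive. Sis (1.90) was at 1.96 with the B cell covariate and 1.92 without Erbb3-FF mice 5 and 6, Khk (1.50) at 1.40 and 1.45, and Slc2a5 (1.57) at 1.37 and 1.60. The cause of these changes was not tested. Genotype differences changed sign in litter B alone for Sis (0.19), Mgam (0.22), Slc2a5 (0.0419) and Khk (0.27), and without ERBB3-dIE mice 4 and 5 for Mgam (0.0059) and Slc2a5 (0.0426). With enterocyte markers subtracted they were 0.43 in Mgam (1 member called higher), 0.28 in Slc5a1, 0.40 in Slc2a5 and 0.37 in Khk, all below that shifted median, and the litter difference of Slc5a1 was -0.0383. With mouse number as a replicate block in place of litter, 217 genes were higher and 538 lower, and Treh differed by -1.43 (limma adjusted p = 0.0150). The numbers did not pair the mice: deviations of same-numbered mice correlated at 0.074 to 0.357, and only mice 4 and 5 correlated best with their own number in both genotypes. Slc2a2 was not tested in 6 of the 12 fits that left out 1 mouse. Depth per library is unknown, which limits what can be said of Lct and Slc2a2.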
